A study of Oryctolagus cuniculus with 12 samples.

Results

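The genes described here are TIMP1, the tissue inhibitor that blocks matrix metalloproteinases, PLAU, which encodes the urokinase plasminogen activator, and the metalloproteinases MMP9 and MMP19. They were measured in the basilar artery of the rabbit, the main artery on the front of the brain stem, on 12 single-colour arrays, 1 array per sample. All probes that the array's gene names, accessions or descriptions assign to the 4 genes were taken, which gave 5 of the 43623 non-control probes and 4 of the 10215 genes that the probes name. All 5 probes passed the filter on dim signals, as did 26434 probes in all. The samples form 4 groups of 3: normal control arteries, which the series counts as day 0, and arteries taken 3, 5 and 7 days after experimental subarachnoid hemorrhage (SAH), in which blood enters the cerebrospinal fluid around the brain. The labels give no strain, age or sex, do not say how the bleed was made, name no sham operation, and do not say whether a sample is 1 artery or a pool. The 4 genes were chosen with their differences from the controls known. Those differences, and the calls made on them, are thus a description and not a test.

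Matrix metalloproteinases are zinc enzymes that cut proteins of the extracellular matrix. They are made as inactive precursors, and plasmin, which urokinase releases from plasminogen, is among the enzymes that can activate them. TIMP1 binds the active site of several metalloproteinases and also binds the precursor of MMP9. In arteries these genes are known from the remodelling of the vessel wall and from the basement membrane of brain vessels, which MMP9, also called gelatinase B, can cleave.

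The probes are 60 bases long, and 1 sequence is shown for each gene. For PLAU it is that of the dimmer probe, while the fold changes and ranks of the gene rest on the brighter one. Each is written in lower case, from its 5′ end to its 3′ end, as the array files give it.
TIMP1: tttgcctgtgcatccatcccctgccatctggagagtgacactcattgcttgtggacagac
PLAU (dimmer probe): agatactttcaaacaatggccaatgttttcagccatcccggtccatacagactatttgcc
MMP9: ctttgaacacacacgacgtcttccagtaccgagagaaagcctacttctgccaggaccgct
MMP19: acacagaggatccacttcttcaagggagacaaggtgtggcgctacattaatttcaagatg

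The array files place the TIMP1 probe at chrX:32658284-32658343 on the plus strand and the MMP19 probe at chr4:39422069-39422277 on the minus strand. The MMP19 span covers 209 bases of genome for a 60-base probe. PLAU had 2 probes on the minus strand, the dimmer at chr18:13597857-13597916 and the brighter at chr18:13595343-13595402, with 2454 bases between them. The MMP9 probe has no position in the array files. The genome build behind these positions is not given in the sources used here, so they were not set against an annotation of exons or untranslated regions. The longest run that any of the 5 probes shares exactly with another probe of the array, on either strand, is 13 bases for TIMP1, MMP9 and the dimmer PLAU probe and 14 bases for MMP19 and the brighter PLAU probe. The MMP9 and TIMP1 probes hold 53.3% G and C, MMP19 45.0%, the dimmer PLAU probe 43.3% and the brighter 38.3%. MMP19 was named from its description on the array alone, and the array lists TIMP1 under a locus name that a RefSeq gene table ties to TIMP1.

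Levels are log2 processed signals minus the log2 of each array's 75th percentile, so 0 is the level of that percentile and each unit is a doubling. The 75th percentile ranged from 127 to 191 signal units, and saturated spots were absent on all 12 arrays. Control replicate 2 stood apart, with 50.1% of probes well above background while the other 11 had 58.1% to 64.0%, and it had 169 outlier spots while they had 1 to 16. Each slide holds 1 array of every group, and a group has the same position on each slide, so position on the slide and group cannot be told apart. Whether the samples of a group came from separate animals is not stated, so p-values reflect the scatter of these samples alone, and that scatter may be technical. The 3 arrays of a group limit the precision. In a whole artery, fewer cells of a type and less RNA per cell cannot be told apart.

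TIMP1 was the member with the largest difference from the controls, and its level was highest on day 3. Its log2 level was 3.68, 3.99 and 4.08 in the controls. On day 3 it was 6.98, 7.24 and 8.01. On day 5 it was 5.84, 5.19 and 5.49, and on day 7 it was 5.78, 5.24 and 5.19. Every array after SAH lay above every control, and every day 3 array lay above every later one, while day 5 and day 7 overlapped. TIMP1 averaged 7.41 ± 0.54 on day 3 and 3.92 ± 0.21 in the controls (SD, n = 3 each), an 11.2-fold difference (log2 change 3.49, SE 0.28). The difference from the controls was 3.01-fold on day 5 (log2 change 1.59) and 2.79-fold on day 7 (log2 change 1.48), each with an SE of 0.28. On the log2 scale, 45.6% of the day 3 change was present on day 5 and 42.5% on day 7. Within the 3 slides the day 3 change lay between 3.24 and 3.92. The probe was well above background on all 12 arrays.

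PLAU was higher than in the controls on each day, by less than TIMP1, and both of its probes had that order. The log2 level of the brighter probe was 1.70, 1.96 and 2.01 in the controls. It was 3.41, 3.11 and 3.70 on day 3, 2.91, 2.63 and 3.25 on day 5, and 2.67, 3.05 and 2.65 on day 7. All 9 arrays after SAH lay above the controls, and day 5 overlapped both day 3 and day 7. The brighter probe was 2.86-fold above the controls on day 3 (log2 change 1.51), 2.05-fold on day 5 (1.04) and 1.86-fold on day 7 (0.89), each log2 change with an SE of 0.21. The dimmer probe measured −2.93, −2.10 and −2.73 in the controls, −1.37, −1.82 and −1.54 on day 3, −1.58, −1.90 and −1.79 on day 5, and −2.04, −1.97 and −1.91 on day 7. Its groups after SAH also lay above the controls with no overlap, and its log2 changes were smaller, at 1.01, 0.83 and 0.62 on days 3, 5 and 7 (SE 0.21 each). Control replicate 2 was the highest of the 3 controls on the dimmer probe. Both probes were well above background on all 12 arrays.

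MMP9 differed in direction from the other 3 genes: its level on day 3 overlapped the controls, and on days 5 and 7 it was lower. Its log2 level was 0.09, 0.98 and 1.19 in the controls and 0.22, 0.91 and 0.42 on day 3. It was −0.88, −1.15 and −0.82 on day 5 and −1.31, −1.33 and −2.32 on day 7. Every day 5 array lay below every control and every day 3 array, and every day 7 array lay below every day 5 array. Control replicate 1 was the lowest control and day 7 replicate 3 the lowest array of all. On day 3 MMP9 averaged 0.52 ± 0.36, and in the controls 0.76 ± 0.59 (SD, n = 3 each), a log2 change of −0.24 with an SE of 0.33. The 95% interval of that change ran from −0.97 to 0.49, so a rise of up to 0.49 or a fall of up to 0.97 on the log2 scale is within it. On day 5 the level was 3.27-fold below the controls (log2 change −1.71, SE 0.33), and on day 7 it was 5.32-fold below them (log2 change −2.41, SE 0.33). Within slides the day 7 change lay between −3.52 and −1.40. The normexp correction takes the background from the spot's surroundings, and here 50 signal units were also added to every signal. An added constant makes log2 changes smaller, most of all for dim probes. With this setting the log2 changes of MMP9 were −1.13 on day 5 and −1.49 on day 7. The probe was well above background on all 12 arrays.

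MMP19, a secreted metalloproteinase, was dim on these arrays. In the processed signals its order over the days was that of TIMP1 and PLAU. Its log2 level was −3.15, −3.18 and −4.04 in the controls, where 1 of 3 arrays was well above background. It was −1.97, −1.59 and −1.52 on day 3, −2.28, −2.53 and −2.09 on day 5, and −2.82, −2.39 and −2.93 on day 7, and all 9 of these arrays were well above background. The arrays after SAH lay above the controls on each day, day 5 lay below day 3, and day 5 and day 7 overlapped. MMP19 was 3.39-fold above the controls on day 3 (log2 change 1.76), 2.23-fold on day 5 (1.16) and 1.67-fold on day 7 (0.74), each log2 change with an SE of 0.26. The size and order of these changes depended on the setting. With the normexp correction and its added 50 units the log2 changes were 0.30, 0.39 and 0.08 on days 3, 5 and 7. The day 5 change was then the largest. The part of the added units in these smaller changes was not tested.

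**Figure D1:**
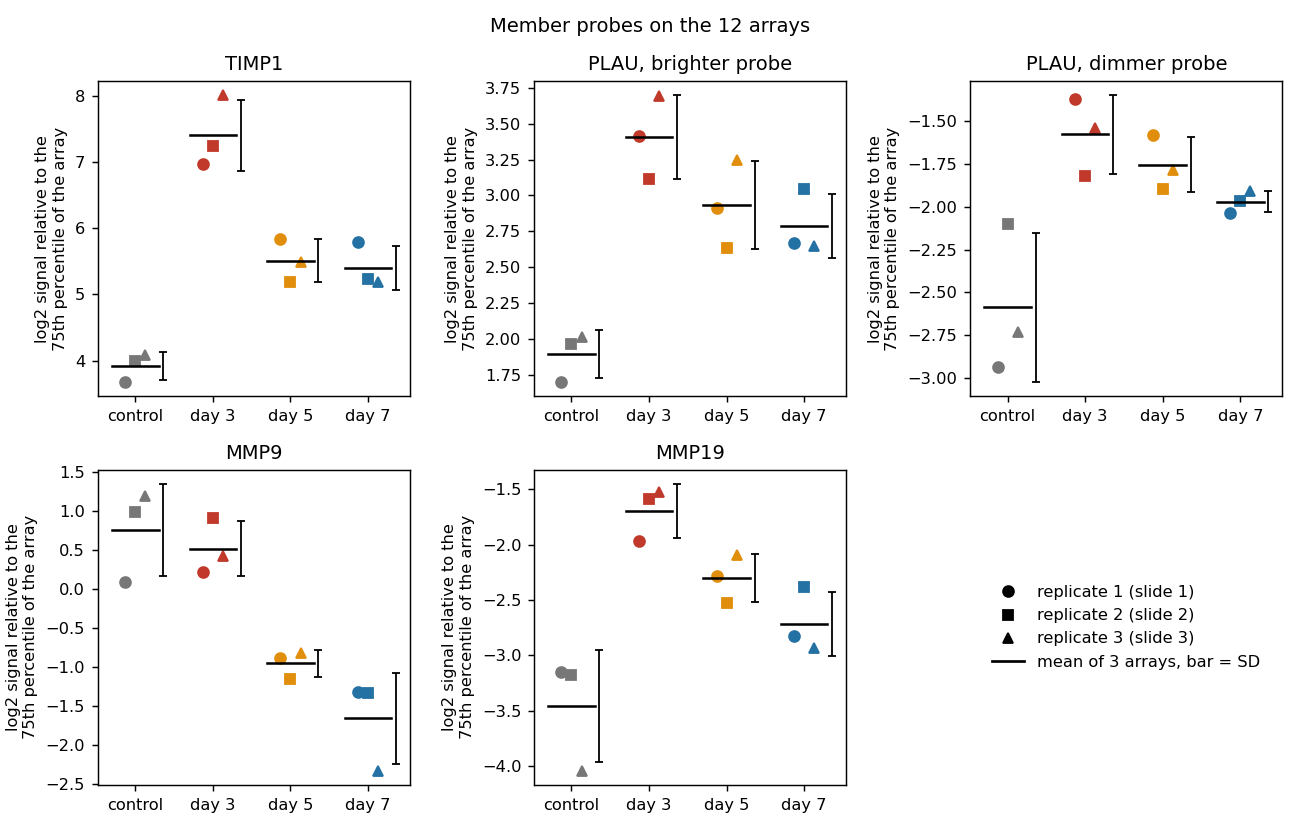
Log2 signal minus that of the array's 75th percentile (y axis) of the 5 probes in the control, day 3, day 5 and day 7 groups (x axis); each symbol is 1 array, horizontal lines are means of 3 arrays and bars are SDs. TIMP1, both PLAU probes and MMP19 are above the controls on every array after hemorrhage and highest on day 3, while MMP9 overlaps the controls on day 3 and is below them on days 5 and 7.

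**Figure D2:**
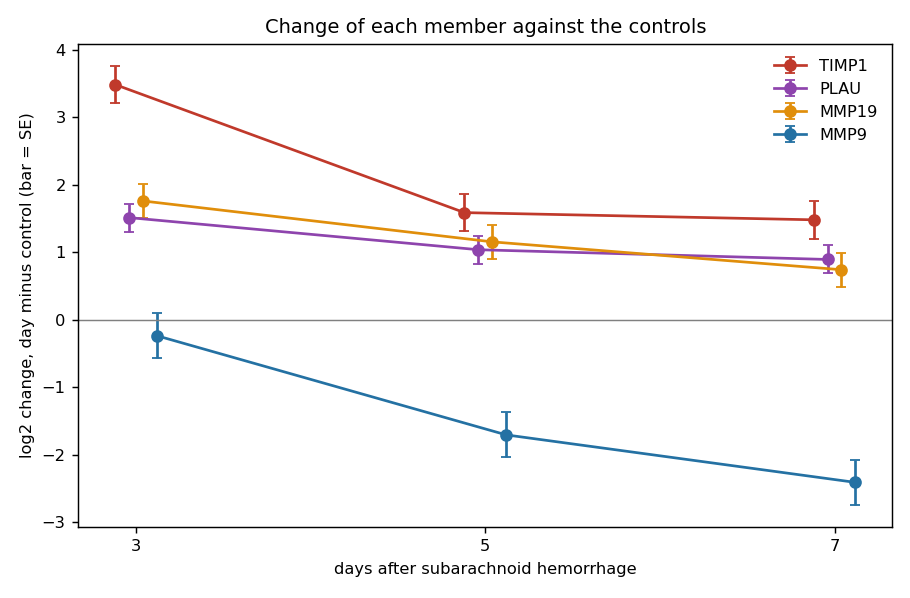
Log2 change of each gene against the controls (y axis, bars are SEs from the fit over 12 arrays) by days after hemorrhage (x axis), with the brighter probe for PLAU. TIMP1 has the highest value, 3.49 on day 3, and MMP9 the lowest, −2.41 on day 7.

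The share of all genes that passed the same limits gives the background for these counts. Taking 1 probe for each of the 7353 named genes tested, adjusted p below 0.05 in limma was reached by 4.88% of genes as higher on day 3 than in the controls and by 2.03% as lower, and TIMP1, PLAU and MMP19 were among the higher ones. On day 5 the shares were 1.96% higher and 0.218% lower, and the same 3 genes were among the higher and MMP9 among the lower. PLAU is counted by its brighter probe, and its dimmer probe did not pass the limit on day 5. On day 7 the shares were 1.99% higher and 0.585% lower, with TIMP1 among the higher and MMP9 among the lower. These calls differed in how often they held over other settings, which include the 12 fits without 1 array. On day 5 the limit was passed by MMP19 in 4 of 20 settings and in 0 of the 12 fits, by MMP9 and PLAU in 15 of 21 and by TIMP1 in 19 of 21. On day 7 it was passed by TIMP1 in 16 and by MMP9 in 21 of 21. Groups that do not overlap were more frequent than calls: 13.7% of genes lay wholly above the controls on day 3, 10.2% on day 5 and 12.3% on day 7, and 11.4%, 6.84% and 11% lay wholly below. TIMP1, PLAU and MMP19 were in the first set on each of the 3 days, and MMP9 was in the second on days 5 and 7. By size, the TIMP1 change ranked 16 among the rises of the 7353 genes on day 3, and the MMP9 change ranked 25 among the falls on day 5 and 8 on day 7. Because the genes were chosen with these differences known, the calls, counts and ranks, over all settings, describe the 4 genes and support nothing further.

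The 3 days were compared with each other to ask whether the levels moved after day 3. These differences share their arrays with those against the controls. The genes were chosen with the latter known, so the p-values here are not free of that choice. From day 3 to day 7, TIMP1 fell 4.01-fold, to 5.40 ± 0.33 on day 7 against 7.41 ± 0.54 on day 3 (log2 change −2.0, SE 0.28, limma adjusted p = 0.0450), and MMP9 fell 4.51-fold, to −1.66 ± 0.58 on day 7 against 0.52 ± 0.36 on day 3 (log2 change −2.17, SE 0.33, limma adjusted p = 0.0467). On each of the 3 slides both genes were lower on day 7 than on day 3, with log2 changes of −1.19, −2.0 and −2.82 for TIMP1 and of −1.53, −2.24 and −2.74 for MMP9. Of the 7353 genes, 0.0952% were called lower and 0.0136% higher on day 7 than on day 3, and 13% lay wholly below with no overlap, all 4 members among them. With normexp the log2 change was −1.30 for MMP9 (limma adjusted p = 0.0296) and −2.07 for TIMP1 (adjusted p = 0.0130). Both calls lay close to the threshold. With the slide as a block the adjusted p was 0.0820 for both genes. Without 1 array at a time it ran from 0.0400 to 0.226 for each gene, and TIMP1 was called in 3 and MMP9 in 2 of 12 such fits. Both calls held without control replicate 2, at an adjusted p of 0.0400, and without control replicate 3, at 0.0422, and TIMP1 also held without day 3 replicate 1, at 0.0494. The highest value, 0.226, came without day 7 replicate 3 for both genes.

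The other differences between days did not pass the threshold in the main fit. On day 5 against day 3 the log2 change was −1.90 for TIMP1 (95% interval −2.51 to −1.29, limma adjusted p = 0.0838), −1.47 for MMP9 (−2.20 to −0.74, adjusted p = 0.226), −0.61 for MMP19 (−1.17 to −0.05) and −0.48 for PLAU (−0.93 to −0.02). On day 7 against day 3 it was −1.02 for MMP19 (95% interval −1.58 to −0.46, adjusted p = 0.193) and −0.62 for PLAU (−1.08 to −0.16, adjusted p = 0.319). On day 7 against day 5, MMP9 differed by −0.70 (−1.43 to 0.03), MMP19 by −0.41, PLAU by −0.14 and TIMP1 by −0.11 on the log2 scale, with a limma adjusted p of 1.0 for each of the 4 genes. Few genes passed between these days at all. With limma, 3 of 26434 probes were called on day 5 against day 3, where 1846 had an unadjusted p below 0.05, and 0 were called on day 7 against day 5, where 414 had one. No overlap with day 3 was found on day 5 for TIMP1, MMP9 and MMP19, all lower, as for 7.43% of genes, and no overlap with day 5 was found on day 7 for MMP9, lower, as for 4.96% of genes.

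The difference between 2 probes on the same array does not depend on how arrays are scaled to each other, and its change from the controls can be followed over the days. Set to 0 at the control mean, MMP9 minus TIMP1 was −0.43, 0.15 and 0.27 in the controls, −3.59, −3.16 and −4.42 on day 3, −3.56, −3.18 and −3.16 on day 5, and −3.94, −3.40 and −4.35 on day 7. Every array after SAH lay below every control, and the 3 days overlapped. Relative to TIMP1, MMP9 was thus 13.2-fold lower than in the controls on day 3, 9.83-fold on day 5 and 14.9-fold on day 7. The parts of this difference varied between days: on day 3 TIMP1 was higher and MMP9 overlapped the controls, and on days 5 and 7 TIMP1 was higher by less and MMP9 was lower. MMP9 minus PLAU was −1.75 ± 0.60 on day 3, −2.75 ± 0.16 on day 5 and −3.31 ± 0.50 on day 7 (SD, n = 3 each). PLAU minus TIMP1 was lowest on day 3, at −1.97 ± 0.39, with −0.55 ± 0.34 on day 5 and −0.59 ± 0.47 on day 7, so the PLAU and TIMP1 changes were unequal, most of all on day 3. These differences were chosen after the levels were seen and carry no test. They rest on the processed signals and were not computed with the normexp correction. With that correction MMP9 fell by less, with log2 changes from the controls of −1.13 on day 5 and −1.49 on day 7.

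**Figure D3:**
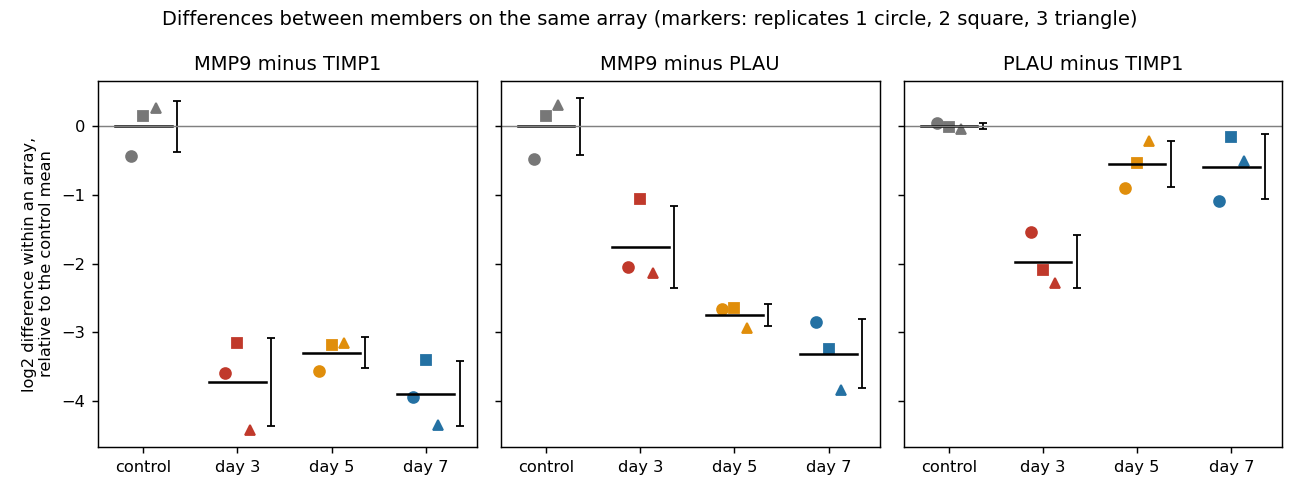
Log2 difference between 2 members on the same array, set to 0 at the control mean (y axis), for MMP9 minus TIMP1, MMP9 minus PLAU and PLAU minus TIMP1 in the 4 groups (x axis); symbols are arrays, lines means and bars SDs. MMP9 minus TIMP1 lies between −4.42 and −3.16 on all 9 arrays after hemorrhage.

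The rest of the protease system was read from lists of other metalloproteinases, other inhibitors, ADAM and ADAMTS proteases, which are related zinc enzymes of the cell surface and matrix, and genes of the plasminogen system. Together they had 31 tested genes, of which 0 were called with limma against the controls on day 3, 0 on day 5 and 0 on day 7. Of the 7353 genes, 4.88%, 1.96% and 1.99% were called higher on these days and 2.03%, 0.218% and 0.585% lower. An unadjusted p below 0.05 was reached by 12, 5 and 8 of the 31 on days 3, 5 and 7, and by 21.7%, 14.8% and 19.4% of the 7353 genes. Leaving out ADAM12, for which the controls give only a bound, the log2 changes of the other 30 ran from −1.04 to 0.84 on day 3, from −0.68 to 0.91 on day 5 and from −0.82 to 0.86 on day 7. The median over the 31, with ADAM12 at its bound, was 0.12, 0.09 and 0.06, beside 0.00, 0.02 and 0.03 over all 7353 genes.

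Of 18 other metalloproteinases with a probe, 9 were tested. MMP3, or stromelysin, had a log2 change of 0.71 on day 3 (limma adjusted p = 0.110), and MMP1, an interstitial collagenase, one of −0.52 (adjusted p = 0.135). MMP2, the other gelatinase, had 0.35, 0.80 and 0.86 on days 3, 5 and 7, with an adjusted p of 0.111 on day 7. The other 9, among them MMP7, MMP10, MMP12 and MMP13, were well above background on at most 5 of 12 arrays each and were not tested.

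Among the other inhibitors, 3 of the 4 with a probe were tested, and all 3 had changes below 0 on each day. TIMP4 had −0.86 on day 3 (limma adjusted p = 0.0835), −0.68 on day 5 and −0.82 on day 7, and TIMP3, an inhibitor held in the matrix, had −0.29, −0.40 and −0.52. These are opposite in sign to TIMP1, without passing the threshold. Of the ADAM and ADAMTS proteases, 9 of 12 with a probe were tested. ADAM9 had 0.77, 0.75 and 0.82 on days 3, 5 and 7, and ADAMTS12 had −0.74 on day 3. ADAM12 was not well above background on any control, and its day 5 level was at least 1.29-fold higher, with a limma adjusted p of 0.186.

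In the plasminogen system, 10 of 14 genes with a probe were tested. SERPINI1, a protease inhibitor known from nerve cells, had log2 changes of −0.19, −0.49 and −0.50 on days 3, 5 and 7, with limma adjusted p-values of 0.697, 0.375 and 0.294. ANXA2, part of a plasminogen receptor at the cell surface, had 0.58 on day 3, and its partner S100A10 had 0.50, 0.47 and 0.52 on the 3 days. PLAUR, the urokinase receptor, had 0.47 on day 3, −0.30 on day 5 and −0.75 on day 7, and PLAT, the tissue-type activator, had 0.84 on day 3, 0.38 on day 5 and 0.22 on day 7. None of these passed the threshold. PLG, which encodes plasminogen itself, was not well above background on any array.

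**Figure D4:**
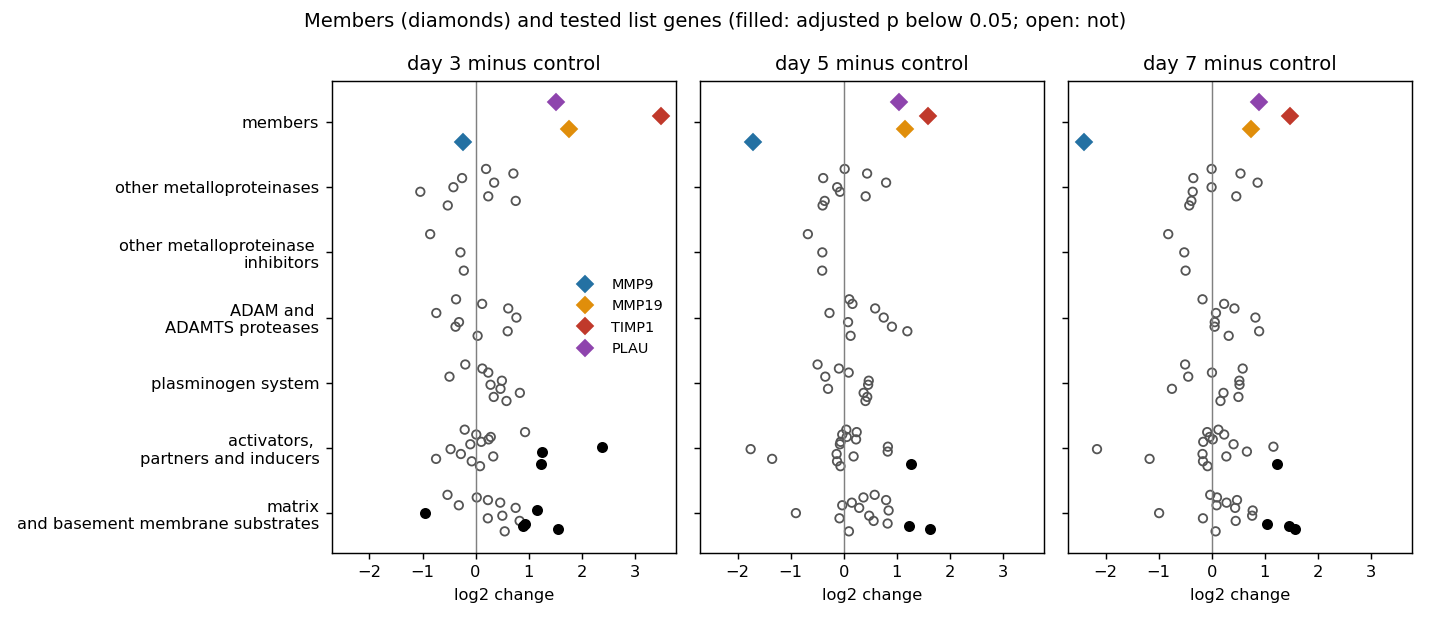
Log2 change against the controls (x axis) on day 3, day 5 and day 7 for the 4 members (diamonds) and the tested genes of 6 lists (circles, y axis); filled circles passed an adjusted p of 0.05 and open ones did not. The 31 genes in the upper 4 lists are all open, and the filled circles are in the lists of activators and of matrix substrates.

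Among activators, partners and inducers of these proteases, 16 of 23 genes with a probe were tested. Of the 16, 3 were called higher on day 3, 1 on day 5 and 1 on day 7, with 0 called lower. The shares over all 7353 genes were 4.88%, 1.96% and 1.99% higher and 2.03%, 0.218% and 0.585% lower. CD44, a hyaluronan receptor that can hold MMP9 at the cell surface, rose on all 3 days, by 1.23, 1.27 and 1.22 on the log2 scale (SE 0.21 each), with limma adjusted p-values of 0.00711, 0.0112 and 0.0143. Its adjusted p was 0.0530 on day 5 without day 5 replicate 1, and on day 7 it was 0.0699 without day 7 replicate 1 and 0.0561 without day 7 replicate 2. HGF, a growth factor whose precursor urokinase can cut, rose on day 3 by 1.25 (SE 0.22, adjusted p = 0.00746), with 0.83 on day 5 and 0.66 on day 7. IL6, an inflammatory cytokine, was called on day 3 (limma adjusted p = 0.0169). No control array was well above background for it, and the day 3 level was at least 1.61-fold higher. The adjusted p of IL6 was 0.433 with normexp (log2 change 0.41), 0.0584 when control replicate 1 was left out and 0.0535 when day 3 replicate 3 was. IL1B, an inflammatory cytokine known to induce MMP9, had −0.47, −1.75 and −2.16 on days 3, 5 and 7, with an adjusted p of 0.116 on day 7. The median over the list was 0.10, 0.01 and −0.01 on the 3 days, and 0.10, −0.01 and −0.02 with IL6 at its bound.

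Matrix and basement membrane proteins, the substrates of these enzymes, had 15 of 16 genes tested. Of the 15, 4 were called higher and 1 lower on day 3, 2 higher on day 5 and 3 higher on day 7. The shares over all 7353 genes were 4.88%, 1.96% and 1.99% higher and 2.03%, 0.218% and 0.585% lower. The medians of the list were 0.50, 0.48 and 0.44. COL1A1 and COL1A2, the chains of type I collagen, rose on all 3 days, COL1A1 by 1.56, 1.62 and 1.57 and COL1A2 by 0.89, 1.24 and 1.45 on the log2 scale, with limma adjusted p-values of at most 0.00940. Both were called under all 21 other settings on each day. COL3A1, the chain of type III collagen, was called on day 3 (log2 change 0.93, limma adjusted p = 0.0329) and day 7 (1.04, adjusted p = 0.0375), and FBN1, fibrillin, was called on day 3 (1.15, adjusted p = 0.0458). FBLN5, an elastic fibre protein, was called lower on day 3 (−0.95, adjusted p = 0.0441). These calls were less firm: of 21 other settings, COL3A1 was called in 13 on day 3 and 6 on day 7, FBN1 in 8 and FBLN5 in 10, with adjusted p-values of up to 0.132 for COL3A1, 0.144 for FBN1 and 0.168 for FBLN5. Type I collagen and DCN are also among the fibroblast markers below, so those counts are not separate.

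Markers of the cell types an artery sample could hold were set beside the members, as the log2 of the summed level of each list's tested genes on an array. Smooth muscle markers, which define the artery wall, had 9 of 10 genes tested, with summed levels between 9.65 and 9.88 in the controls, between 9.10 and 9.30 on day 3, between 9.06 and 9.36 on day 5 and between 9.13 and 9.49 on day 7. The median log2 change of the 9 was −0.58, −0.54 and −0.60 on days 3, 5 and 7. With limma, 1 was called lower on day 3 (adjusted p = 0.0452) and 0 on days 5 and 7. Of all genes tested, 2.03%, 0.218% and 0.585% were called lower on days 3, 5 and 7. An unadjusted p below 0.05 was reached by 5, 5 and 7 of the 9 markers, beside 21.7%, 14.8% and 19.4% of the 7353 genes. GFAP and AQP4, which mark astrocytes of the brain, were not well above background on any array. Of 14 macrophage markers 8 were tested, and 5 of them (CD68, CD14, MSR1, C1QB and MRC1) rose on all 3 days. The shares of the 7353 genes called higher were 4.88%, 1.96% and 1.99% on days 3, 5 and 7. CD68 and CD14 were called under all 21 other settings on each day, while C1QB was called under 16, 16 and 15 of 21 on days 3, 5 and 7, MRC1 under 17 of 21 on day 3, and MSR1 under 13 of 20 on day 5 and 14 of 20 on day 7. The list's summed level lay between 3.33 and 3.90 in the controls, between 4.77 and 5.30 on day 3, between 5.10 and 5.64 on day 5 and between 4.96 and 5.44 on day 7. The macrophage level was thus above the controls with no overlap on the days when TIMP1, PLAU and MMP19 were, and also on days 5 and 7, when MMP9 was lower. Its part in those differences was not tested.

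Neutrophils, which store MMP9 in their granules, were read from 6 tested markers of 14 listed: MPO, S100A8, S100A9, CXCR1, CXCR2 and MMP8. With limma, 0 of the 6 were called on any of the 3 days and 0 had an unadjusted p below 0.05. Their summed level lay between 1.80 and 2.27 in the controls and between 1.99 and 2.32 on day 3. It lay between 1.83 and 2.14 on day 5 and between 2.15 and 3.14 on day 7, so it overlapped the controls on each day. The 3.14 was that of day 7 replicate 1, with 2.23 and 2.15 on replicates 2 and 3. The log2 changes of the 6 markers ran from −0.25 to 1.32 on day 3, with 3 positive and 3 negative. Overlap of a sum over 6 genes, with 3 arrays per group, cannot show that neutrophil content was unchanged. Of the other lists, the fibroblast and leptomeningeal one had 8 of 10 genes tested. On day 3, beside 4.88% of the 7353 genes called higher and 2.03% lower, this list had 3 called higher and 2 lower. PTGDS, a prostaglandin synthase of the leptomeninges, was 1 of those 2, with a log2 change of −1.59 (limma adjusted p = 0.00290). The summed level of that list lay between 10.003 and 11.05 in the controls, between 9.29 and 9.51 on day 3, between 9.87 and 9.89 on day 5 and between 10.02 and 10.39 on day 7. A summed level gives most weight to the brightest genes. The median log2 change of the fibroblast and leptomeningeal genes was 0.70, 0.67 and 0.89 on days 3, 5 and 7. On each day 5 of the 8 changes were positive and 3 negative. Endothelial markers had 6 of 10 genes tested and 0 calls on the 3 days, with 2, 0 and 2 genes at an unadjusted p below 0.05. Lymphocyte markers had 5 of 12 tested, with 1 called higher on day 3. Their summed level lay between 0.68 and 0.82 in the controls, between 1.05 and 1.55 on day 3, between 0.77 and 1.56 on day 5 and between 0.68 and 1.03 on day 7, so it was above the controls with no overlap on day 3 and overlapped them later. Erythroid markers had 2 of 7 tested and 0 calls, with 0, 0 and 1 at an unadjusted p below 0.05. Their summed level lay between 4.72 and 5.63 in the controls and between 4.25 and 6.55 on day 3. It lay between 5.54 and 6.47 on day 5 and between 6.17 and 6.82 on day 7. It overlapped the controls on days 3 and 5 and not on day 7. The part of these cell types in the differences of the members was not tested.

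**Figure D5:**
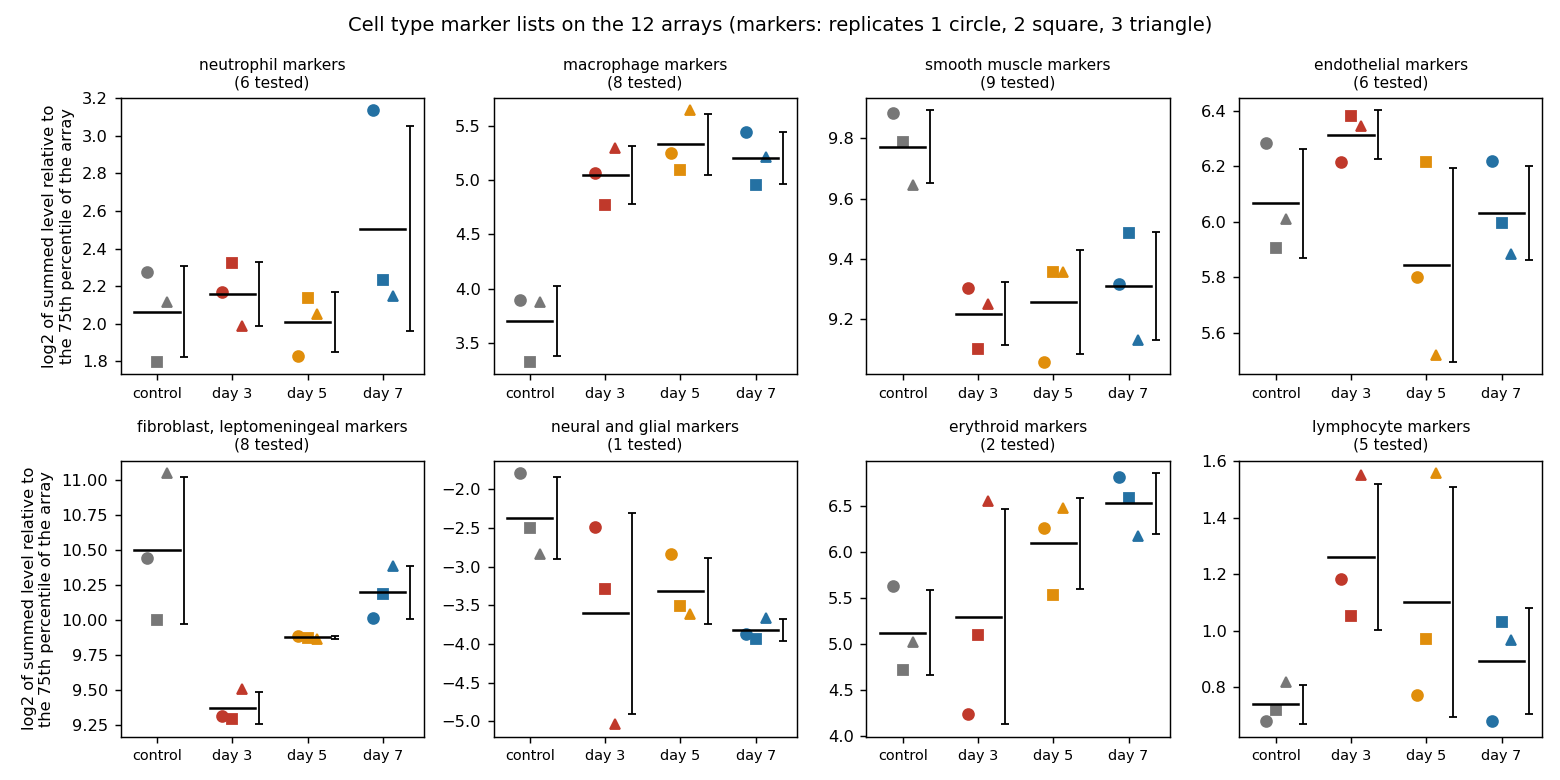
Log2 of the summed level of the tested genes of 8 cell type lists (y axis) in the control, day 3, day 5 and day 7 groups (x axis); symbols are arrays, lines means and bars SDs. Macrophage markers lie above the controls on all 9 arrays after hemorrhage, neutrophil markers overlap the controls on each day, and smooth muscle markers lie below them.

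For each member, the 3 genes with the most similar pattern were found among 7323 named genes, as those with the smallest root mean square difference over the 12 arrays after each gene was centred on its own mean. The arrays share their scaling, so these are descriptions. TIMP1 was closest to UBE2C, AURKB and BUB1, which act in mitosis, with differences of 0.43, 0.47 and 0.47 on the log2 scale, beside a spread of 1.27 of TIMP1 about its own mean. AURKB and BUB1 were well above background on 0 and UBE2C on 1 of the 3 controls, so their likeness to TIMP1 rests in part on signals near background. PLAU was closest to CAPG, an actin capping protein (0.20), RAB13, a small GTPase (0.20), and TK1, thymidine kinase (0.22), beside its own spread of 0.59. MMP19 was closest to SLC51A, a solute transporter subunit (0.23), TK1 (0.25) and IFI35, an interferon-induced protein (0.26), beside its own spread of 0.70. SLC51A was well above background on 0 of 3 arrays on day 7 and on 0 of 3 controls. PLAU itself stood in place 14 among the genes nearest to MMP19, with a difference of 0.33. MMP9 had no gene as close: the nearest were STK40, a kinase (0.63), DENND5B (0.66) and IL1B (0.66), beside its own spread of 1.07. DENND5B was well above background on 0 of 3 arrays on day 7 and on 1 of 3 controls. TIMP1, PLAU and MMP19 stood in places 7174, 6525 and 6572 in the order of likeness to MMP9.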

How the data were processed

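RNA was extracted with TRIzol and labelled with Cy3, per the labels. The authors deposited scanner output of Agilent Feature Extraction 9.5.1.1, a version given in the submitters' processing notes. The processed signal is an intensity that the software background-subtracted and detrended on each array, per the file headers. The spot's mean signal and its local background are unscaled intensity columns, per the file headers. The flags for signal well above background, outliers and saturation hold 0 or 1 (kind other), per the file headers. The authors' deposited value table, an alternative here, holds linear intensity with a median of 27.0 on all 12 arrays. On the log2 scale it correlated with the processed signals (r = 0.994 or more), so it runs in the same direction.

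Control spots were left out and outlier spots set to missing. Tested probes had all 3 arrays of some group well above background. All 12 arrays entered 1 two-sided fit with limma 3.58.1 (R 4.3.3), without a block, and p-values were adjusted by Benjamini-Hochberg over 26434 probes, with a threshold of 0.05. The brightest tested probe stands for its gene. Where 0 of 3 arrays of a group passed that flag, a bound replaces the fold: each dim array counts with its own signal or with the lowest signal of its array that passed, whichever is higher. Gene names came from the array's accessions, identifiers and descriptions, looked up in a RefSeq table (assembly mOryCun1.1). There were 22331 probes with 1 gene, 125 with several and 21167 with none. The fit was tested on simulated data.

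The members, lists, tests and the rule for named genes were chosen with earlier results of these data known. The rule names up to 4 called genes of each protease, partner or substrate list per day, or else the 2 with the smallest p, the 2 brightest genes of each marker list, of which CD14 and PTGDS are described, and the 3 genes most like each member. PLAUR, PLAT, IL1B, the 5 called macrophage markers and the 6 neutrophil markers are named besides, chosen after their values were seen. A gene of the plasminogen list that the rule selects is not reported here. MPO, MMP8, COL1A1, COL1A2 and DCN are each in 2 lists. Alternatives changed the background correction, scaling, filter, probe rule, block, array weights and the arrays included. The alternative background correction, normexp, also added 50 signal units to every signal.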

Additional observations from a re-analysis of the deposited data

Results flagged for a closer look

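TIMP1 and MMP9 were called lower on day 7 than on day 3 in the main fit of all 12 arrays. TIMP1 had a log2 change of −2.0 and MMP9 one of −2.17, each lower on 3 of 3 slides, with limma adjusted p-values of 0.0450 and 0.0467. TIMP1 stayed above the controls on day 7, whereas MMP9 lay below them. The genes were chosen with their differences from the controls known, and those differences share the day 3 and day 7 arrays. The p-values are therefore not free of that choice. With the slide as a block the adjusted p was 0.0820 for both genes, and without 1 array at a time TIMP1 passed the threshold in 3 and MMP9 in 2 of 12 fits.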

How the results depend on the processing

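The member counts against the controls were 3 of 4 on day 3, 4 on day 5 and 2 on day 7. These counts and their range over settings describe genes chosen with the differences known, and are no test of them. On day 3, 3 members were called in all 12 fits without 1 array. On day 5 these fits gave 0 to 3 and on day 7 1 to 3. Normexp gave 2 on day 3, where MMP19 had a log2 change of 0.30 and was not called, and 2 on day 5. Testing all probes without a filter gave 1 on day 5 and 1 on day 7. Between days, 2 members were called on day 7 against day 3. The count there was 0 to 3 over the 9 other settings and 0 to 2 without 1 array. It was 0 without the filter and 1 in the authors' value table, where MMP9 had a limma adjusted p of 0.0506. MMP19 passed on day 7 against day 3 in 1 of 20 settings. On day 5 against day 3, where 0 were called, normexp gave 1 and array weights gave 2. The pathway lists gave 8, 3 and 4 calls on days 3, 5 and 7, with 4 to 10, 2 to 5 and 2 to 5 without 1 array. They gave 5 on day 3 without the filter, and 9 on day 5 and 7 on day 7 with array weights. The probes called on days 3, 5 and 7 against the controls numbered 1754, 533 and 597, with 974 to 2462, 221 to 1145 and 253 to 1586 over 9 other settings and 789 to 1943, 280 to 685 and 229 to 1692 without 1 array. On day 7 against day 3 there were 38, with 2 to 227 and 2 to 70. On day 5 against day 3 there were 3, with 0 to 255 and 0 to 5. The lowest of these counts on day 7 against the controls came without day 7 replicate 1 and the highest without control replicate 3.

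Arrays with the same replicate number share a slide, and the labels do not say that they share an animal. Of 18 same-numbered pairs, 10 had a correlation over 0.1 (median 0.11, range −0.15 to 0.39), against 2 of 36 pairs with different numbers (median −0.04). The main fit had no block, because the labels do not say that a replicate number marks an animal, litter or day. Same-numbered pairs had the higher median, so the fit with a block is given beside it. With the replicate number as a block, member counts were 3, 3 and 3 on days 3, 5 and 7 against the controls and 0 on day 7 against day 3, and the lists gave 11, 5 and 6. Probes called on day 7 were 954 against the controls and 2 against day 3.

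Of 534 changes of members under alternatives, 525 kept their sign. The sign turned for MMP19 on day 5 against day 3 (0.10 with normexp), for PLAU on day 7 against day 5 (0.051 with normexp, and −0.29 to 0.014 without 1 array) and for TIMP1 on day 7 against day 5 (0.13 with normexp, 0.050 with array weights, and −0.30 to 0.058 without 1 array). MMP9 on day 3 against the controls, which was not called, was 0.15 with array weights. Against the controls, the sign turned with normexp for ADAM12 on day 3 (−0.024), ADAMTS12 on day 5 (0.25) and PLAUR on day 5 (0.15), and with array weights for PLAT on day 5 (−0.13) and day 7 (−0.18). Without 1 array, ADAMTS12 on day 7 ran from −0.071 to 0.22, PLAUR on day 5 from −0.73 to 0.34 and SERPINI1 on day 3 from −0.38 to 0.045. The causes were not tested.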
